A study of Homo sapiens with 40 samples.

Results

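The effect of HINFP siRNA on the transcripts of hTERT-RPE1 cells was measured 3 days after transfection. The comparison was made of the arrays whose labels name hTERT-RPE1 cells, day 3 and either HINFP or control siRNA, which gave 4 of the 40 arrays of the study, 2 for each siRNA. All 22069 Ensembl genes of the deposited table were tested. hTERT-RPE1 is an established human line derived from retinal pigment epithelium and immortalised by telomerase (hTERT), and the study set it against the osteosarcoma line U2OS to ask whether normal and tumour cells respond differently to loss of histone gene regulators. Both groups received 15 nM siRNA with the reagent HiPerFect, in a reverse transfection (cells plated onto the transfection mixture), as a set of siRNAs against HINFP or as a negative control siRNA. The duplicates of day 3 were transfected at the same time according to the methods, so the p-values measure the spread between simultaneous transfections and leave out the variation between separate experiments. The line had also received NPAT or CASP8AP2 siRNA on the same day, and these arrays, with the U2OS arrays, are used below only where the HINFP effect is set beside them.

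HINFP is a zinc finger transcription factor that binds a conserved element in the promoters of histone H4 genes and drives their transcription when cells enter S phase. It acts with NPAT, a substrate of cyclin E and CDK2 that sits at histone gene clusters, while CASP8AP2 (FLASH) takes part in the processing of histone mRNA. Histone supply is coupled to DNA replication, so genes of histone supply, replication and mitosis and genes of stress responses were looked at as lists.

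RNA was read on Affymetrix Human WT arrays, and values are on the log2 scale, so a difference of 1 is a 2-fold change. The 4 arrays had means between 5.85 and 5.88, and gene values lay between 2.32 and 13.10. Precision is limited by the 2 arrays per group, and a log2 fold change had a median SE of 0.11. Array values were nearly equal on average, so each change is relative to the other genes of the array, and in RNA from whole cultures fewer cells of a type and less RNA per cell cannot be told apart. Symbols were paired with 1924 of the genes (8.72%), and none of the 69 canonical histone genes that were listed was among them, so the histone clusters are not reported here. Of 15 pigment epithelium markers 2 had a symbol, BEST1 with control arrays at 3.89 and 4.09 and RLBP1 at 3.74 and 3.82, both below the median control level of 5.25. Of the 3 mesenchymal genes with a symbol, CDH2 (11.01 and 10.98) and FN1 (12.67 and 12.54) lay above the upper quartile of 7.87. This is a rough check, since array values also depend on the probes and levels are given for only some of the markers. None of the marker genes with a symbol was called different under HINFP siRNA.

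The knockdown was examined first. HINFP (ENSG00000172273) was 7.15 and 7.33 on the control arrays and 6.16 and 6.23 with HINFP siRNA. Both arrays with HINFP siRNA lay below both control arrays, with a log2 fold change of -1.05 (SE 0.15, limma adjusted p 0.00263) and 48.4% of the transcript left. The arrays of the same cells with NPAT siRNA (7.07 and 7.09) or CASP8AP2 siRNA (7.16 and 7.23) gave HINFP values near or within the control range, above both HINFP siRNA arrays. The other targeted transcripts did not pass the test. NPAT gave 8.44 and 8.28 with control and 8.24 and 8.47 with HINFP siRNA, so its groups overlapped (log2 fold change -0.00, 95% interval from -0.24 to 0.23, adjusted p 0.99). CASP8AP2 gave 7.51 and 7.47 against 7.13 and 7.35 (log2 fold change -0.25, adjusted p 0.219), with both HINFP siRNA arrays lower.

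HINFP siRNA changed 915 of the 22069 genes at an adjusted p under 0.05 (4.15% of all genes), 471 higher (2.13%) and 444 lower (2.01%). Most changes were small: the median size among the called genes was 0.51, and 432 of the 915 (47.2%) moved by under 0.5. A log2 change of at least 1 was found in 46 called genes (0.208%). The arrays of the groups did not overlap for any of the 915 genes, but this was also so for 10187 genes (46.2%) over the whole table, so non-overlap alone says little with 2 arrays a group. Where non-overlap is stated below for genes called in hTERT-RPE1 cells, it adds nothing to the call. Among genes with a symbol 119 of 1924 were called (6.19%), 56 higher (2.91%) and 63 lower (3.27%). The count rests on the first HINFP array: it was 145 without HINFP replicate 1, 344 without HINFP replicate 2, 698 without control replicate 1 and 682 without control replicate 2. It also rests on the spread shared over the 16 arrays of day 3, as the fit of only the 4 arrays called 25 genes, among them PLCB4, ADAMTS14 and HINFP as the genes with a symbol.

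**Figure D1:**
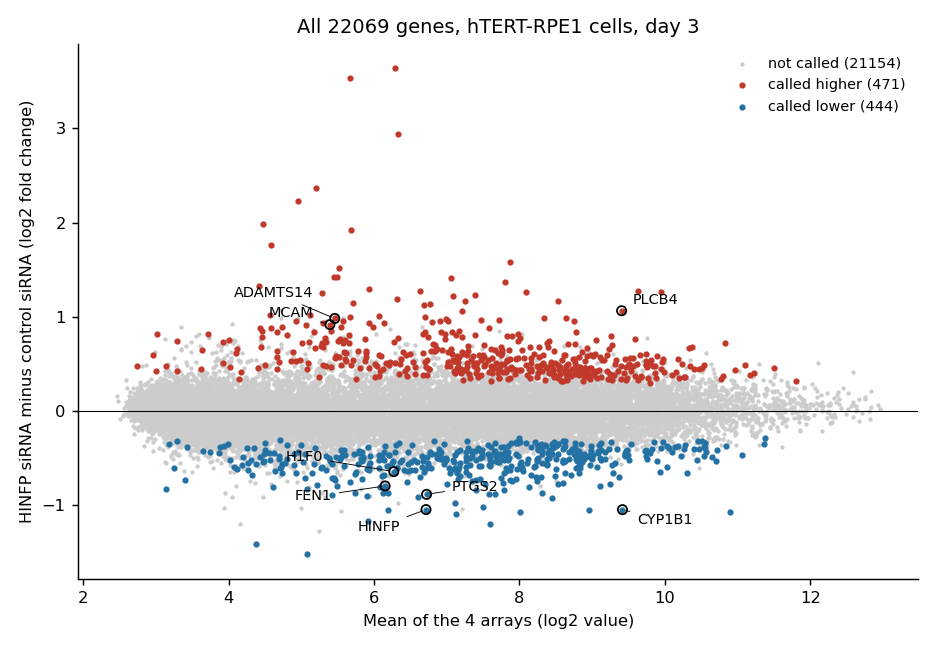
Each point is a gene, placed by the mean log2 value of the 4 arrays (x axis) and by the log2 fold change of HINFP over control siRNA (y axis), with called genes in colour and 8 named genes circled. Rises reached 3.64 and falls -1.52, and most of the 915 called genes lie within 1 log2 unit of zero.

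PLCB4, ADAMTS14 and MCAM rose most among the genes with a symbol. PLCB4, a phospholipase C that acts downstream of G protein coupled receptors, was 8.93 and 8.82 on the control arrays and 9.91 and 9.96 with HINFP siRNA. ADAMTS14, a protease that removes the amino-terminal propeptide of fibrillar collagens, went from 4.98 and 4.96 to 6.00 and 5.90. MCAM (CD146), an adhesion molecule of the immunoglobulin superfamily, went from 4.92 and 4.95 to 5.99 and 5.72. In each of these 3 genes the lower HINFP array stood well above the higher control array. Their log2 fold changes were 1.06 for PLCB4 (SE 0.09, limma adjusted p 4.08e-05), 0.98 for ADAMTS14 (SE 0.11, adjusted p 0.000529) and 0.92 for MCAM (SE 0.10, adjusted p 0.000523). The calls of PLCB4 and ADAMTS14 held under every alternative that tested them, and that of MCAM was lost only in the fit of the 4 arrays alone (adjusted p 0.0663).

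Among the 10 largest rises of genes with a symbol were those of ion channels and of a receptor channel. KCNH1, a voltage-gated potassium channel, was 4.02 and 4.25 with control and 4.80 and 5.23 with HINFP siRNA (log2 fold change 0.88, adjusted p 0.00751). SCN9A, the sodium channel Nav1.7, was 7.52 and 7.71 against 8.25 and 8.46 (0.74, adjusted p 0.00202). GRIN2A, a subunit of the NMDA type glutamate receptor, was 5.11 and 5.39 against 6.02 and 6.09 (0.80, adjusted p 0.0276). In these 3 genes the arrays of the groups stood apart. The call of KCNH1 was lost without HINFP replicate 2 (0.67), and that of GRIN2A without control replicate 1 (0.66), HINFP replicate 1 (0.84) or HINFP replicate 2 (0.77).

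Other genes among these 10 rises were of mixed function. RP2, a GTPase activating protein for ARL3 whose loss causes an X-linked retinal degeneration, was 6.88 and 7.09 with control and 7.81 and 7.78 with HINFP siRNA (log2 fold change 0.81, adjusted p 0.0052). ADAM12, a membrane metalloproteinase, was 9.18 and 9.23 against 10.01 and 9.93 (0.77, adjusted p 0.00433). SIRPG, a signal regulatory protein known from T cells, was near the bottom of the range at 3.58 and 3.54 against 4.39 and 4.19 (0.73, adjusted p 0.0239). All 3 were higher on both HINFP arrays. Without HINFP replicate 1 the calls of RP2 (0.79) and ADAM12 (0.73) were lost, and that of SIRPG was lost without any single one of the 4 arrays (0.62 to 0.83).

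CYP1B1, HINFP itself and PCDHB5 fell most among the genes with a symbol. CYP1B1, a cytochrome P450 induced through the aryl hydrocarbon receptor, was 9.82 and 10.07 with control and 8.96 and 8.83 with HINFP siRNA. PCDHB5, a clustered protocadherin of the beta group, was 5.74 and 5.99 against 4.88 and 5.07. SNAI1, the Snail repressor of E-cadherin, was 8.32 and 7.97 against 7.47 and 7.30. The HINFP arrays lay below the control arrays in all 3 genes. The log2 fold changes were -1.05 for CYP1B1 (SE 0.16, limma adjusted p 0.00433), which left 48.3% of the transcript, -0.89 for PCDHB5 (SE 0.22, adjusted p 0.0415) and -0.76 for SNAI1 (SE 0.13, adjusted p 0.00826). KREMEN1, a receptor for the Wnt antagonists of the Dickkopf family, was 6.06 and 6.33 against 5.38 and 5.55 (-0.73, adjusted p 0.00718). CYP1B1 lost its call only in the fit of the 4 arrays alone (adjusted p 0.0539). PCDHB5 lost it without any single one of the 4 arrays (-1.02 to -0.76), SNAI1 without HINFP replicate 2 (-0.67) and KREMEN1 without HINFP replicate 1 (-0.64).

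**Figure D2:**
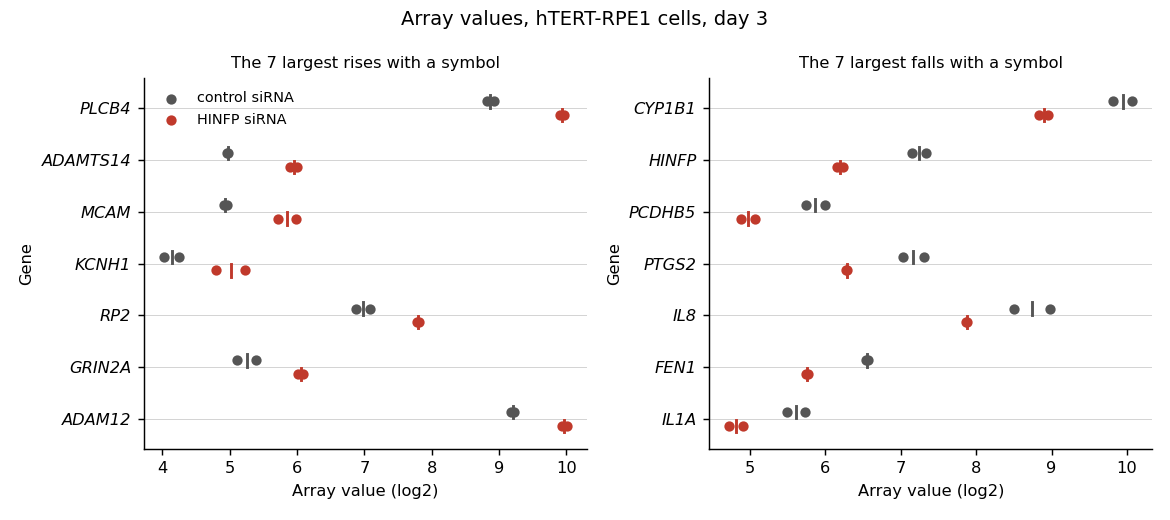
Log2 values (x axis) of the 2 control arrays (grey) and the 2 HINFP siRNA arrays (red) for the called genes with a symbol that rose most (7 genes) or fell most (7 genes), with the group mean as a bar. The groups do not overlap for any gene shown, which the choice of genes required.

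The list of NF-kB genes held 3 of the 10 largest falls among genes with a symbol. In it, 9 cytokine and survival genes had a symbol, 3 fell, none rose and 6 did not pass the test, while 3.27% of all genes with a symbol fell and 2.91% rose. The median log2 fold change was -0.23, beside -0.02 over all genes with a symbol. PTGS2 (COX-2), the inducible enzyme of prostaglandin synthesis, was 7.03 and 7.30 with control and 6.27 and 6.29 with HINFP siRNA (-0.89, SE 0.12, adjusted p 0.00209). IL8, a neutrophil chemokine, was 8.50 and 8.98 against 7.88 and 7.87 (-0.87, adjusted p 0.019), and the control arrays lay further apart than the HINFP arrays. IL1A, the gene of interleukin 1 alpha, was 5.49 and 5.72 against 4.72 and 4.91 (-0.79, adjusted p 0.038). The other members ranged to TNFAIP2 at 0.34 (adjusted p 0.165), and NFKB1, a subunit of the factor itself, gave 0.05. The call of IL8 was lost without control replicate 2 (-0.63), HINFP replicate 1 (-0.88) or HINFP replicate 2 (-0.86), and that of IL1A without any single one of the 4 arrays (-0.91 to -0.67), whereas PTGS2 kept its call without each. PTGS2 and IL8 were also below both control arrays on every array with NPAT or CASP8AP2 siRNA. HINFP siRNA minus NPAT or CASP8AP2 siRNA was -0.13 and -0.27 for PTGS2 (limma adjusted p 0.684 and 0.292). For IL8 it was -0.11 and -0.24 (adjusted p 0.854 and 0.599).

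Few cell cycle genes passed the test, and those that did were lower. Of 18 DNA replication and nucleotide supply genes with a symbol 3 fell and none rose, while 3.27% of all genes with a symbol fell and 2.91% rose. Of the 18, 17 lay below zero and the median was -0.25, while 54.2% of all genes with a symbol lay below zero. FEN1, the flap endonuclease that trims Okazaki fragments, was 6.54 and 6.56 with control and 5.74 and 5.76 with HINFP siRNA (log2 fold change -0.80, SE 0.18, adjusted p 0.026), so duplicates differed by far less than the groups did. DNA2, a nuclease and helicase that acts beside FEN1, was 7.24 and 7.47 against 6.84 and 6.93 (-0.47, adjusted p 0.0457). RPA2, a subunit of the single-strand binding protein, was 7.48 and 7.50 against 7.01 and 7.18 (-0.39, adjusted p 0.0426). Members that missed the threshold had like values, such as the helicase subunit MCM3 (-0.37, adjusted p 0.0799), its partner CDC45L (-0.29, adjusted p 0.0888) and the ligase LIG1 (-0.33, adjusted p 0.0888). RPA1 was the member above zero (0.08, adjusted p 0.754). The number of calls in this list was 1 after each array was centred on its median, 1 without control replicate 1, and 0 without control replicate 2, HINFP replicate 1 or HINFP replicate 2, so that FEN1 lost its call without any single array at values of -0.81 to -0.78.

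The 8 mitosis and spindle genes with a symbol all lay below zero, with a median of -0.27. Of these 3 fell, while 3.27% of all genes with a symbol fell. ESPL1 encodes separase, the protease that opens cohesin at anaphase, and was 7.54 and 7.63 with control and 6.86 and 7.02 with HINFP siRNA (-0.65, SE 0.10, adjusted p 0.00435). NUF2, a kinetochore protein that binds microtubules, was 8.94 and 8.93 against 8.27 and 8.57 (-0.52, adjusted p 0.0251). CDCA8 (borealin), of the chromosomal passenger complex, was 9.01 and 9.14 against 8.59 and 8.57 (-0.49, adjusted p 0.011). The groups stood apart in all 3, as for every called gene. The arrays of CCNA2, which was not called, overlapped (9.70 and 9.92 against 9.58 and 9.81). KIF18B, a kinesin that shortens astral microtubules, is outside the list and was 8.28 and 8.20 against 7.42 and 7.60 (-0.73, SE 0.10, limma adjusted p 0.00173). It is named for the size of its fall. Of 17 kinesin genes with a symbol, counted after the values were seen, only KIF18B was called, and the median was -0.04. Leaving out HINFP replicate 1 removed all 3 calls of the list (ESPL1 -0.57, NUF2 -0.37, CDCA8 -0.50) but not that of KIF18B. NUF2 also lost its call without control replicate 1 (-0.51) or 2 (-0.52), and CDCA8 without control replicate 2 (-0.43) or HINFP replicate 2 (-0.49).

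E2F factors and cyclin E1 fell as well, among the 9 genes of the G1 and E2F list with a symbol, of which 3 fell and none rose (median -0.22). Over all genes with a symbol 3.27% fell and 2.91% rose. E2F2, an activator of S phase genes, was 5.86 and 5.71 with control and 4.85 and 5.29 with HINFP siRNA (-0.72, adjusted p 0.00826). E2F1 was 8.74 and 8.44 against 8.06 and 8.02 (-0.55, adjusted p 0.0235). CCNE1, the G1 cyclin whose kinase phosphorylates NPAT, was 7.13 and 6.81 against 6.33 and 6.63 (-0.49, adjusted p 0.0457). No HINFP array reached a control array in these 3 genes, although the arrays of E2F2 with HINFP siRNA lay well apart from each other. E2F1 and CCNE1 also stand in the list of histone gene transcription and mRNA processing factors, where HINFP, E2F1 and CCNE1 were the 3 of 8 members called and the median was -0.28. HINFP is the target of the siRNA, so this list holds no call beyond it and the genes already counted in the G1 and E2F list. The call of E2F2 was lost without HINFP replicate 1 (-0.50), that of E2F1 without control replicate 1 (-0.40), HINFP replicate 1 (-0.57) or HINFP replicate 2 (-0.53), and that of CCNE1 without control replicate 1 (-0.33) or HINFP replicate 1 (-0.34).

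Among DNA repair genes and histone chaperones 3 genes fell. Of 16 checkpoint and repair genes with a symbol 2 fell, none rose and 13 lay below zero (median -0.19). Over all genes with a symbol 3.27% fell, 2.91% rose and 54.2% lay below zero. FANCE, of the Fanconi anaemia core complex, was 7.38 and 7.45 with control and 6.76 and 6.86 with HINFP siRNA (-0.60, adjusted p 0.0147), and BLM, the Bloom syndrome helicase, was 8.12 and 8.32 against 7.62 and 7.86 (-0.48, adjusted p 0.0426). CHAF1B, a subunit of the chromatin assembly factor that deposits H3 and H4 behind the replication fork, was 8.60 and 8.68 against 8.02 and 8.32 (-0.47, adjusted p 0.0237), the only one of 4 chaperone genes with a symbol to pass the test. These groups did not overlap, as for every called gene. FANCE lost its call without control replicate 2 (-0.57), HINFP replicate 1 (-0.56) or HINFP replicate 2 (-0.65), BLM without any single array (-0.60 to -0.36) and CHAF1B without control replicate 2 (-0.43) or HINFP replicate 1 (-0.32).

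Of 12 replacement histone genes listed 2 had a symbol, H1F0 and H2AFX, and the others were not assessed. Of these 2 genes 1 fell, while 3.27% of all genes with a symbol fell. It was H1F0 (ENSG00000189060), the gene of linker histone H1.0, which is made independently of DNA replication. Its arrays gave 6.60 and 6.59 with control and 6.11 and 5.79 with HINFP siRNA, so the duplicates differed by more under HINFP siRNA (log2 fold change -0.64, limma adjusted p 0.038). The call was lost without control replicate 1 (-0.64), control replicate 2 (-0.65), HINFP replicate 1 (-0.80) or HINFP replicate 2 (-0.49). H2AFX, the gene of the H2A.X variant that marks DNA breaks when phosphorylated, gave 9.30 and 9.43 against 8.97 and 9.07 (-0.34, adjusted p 0.0674).

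Stress, matrix and metabolic lists held few calls, to be read beside the 2.91% of all genes with a symbol that rose and the 3.27% that fell. Of 44 p53 target genes listed 11 had a symbol, so most of that list was not assessed. PMAIP1 (NOXA), a BH3-only promoter of apoptosis, was the only 1 of these 11 that passed the test. It rose from 8.09 and 8.20 to 8.81 and 8.40 (log2 fold change 0.46, SE 0.12, limma adjusted p 0.0448). BAX gave -0.07, BBC3 (PUMA) 0.08 and the median was 0.09. The call of PMAIP1 was lost without control replicate 1 (0.40), control replicate 2 (0.51) or HINFP replicate 1 (0.25). Among 5 hypoxia and glycolysis genes MXI1, a MAX partner that opposes MYC, rose from 7.42 and 7.63 to 8.20 and 8.15 (0.65, adjusted p 0.00265), a call kept without each array. In the matrix list 2 of 16 genes rose and none fell. COL8A1, a chain of the short-chain collagen VIII, went from 7.06 and 6.90 to 7.62 and 7.60 (0.63, adjusted p 0.0055, lost without HINFP replicate 1 at 0.62). COL6A3, a chain of the microfibrillar collagen VI, went from 5.22 and 5.25 to 5.91 and 5.71 (0.57, adjusted p 0.0155, lost without control replicate 1 at 0.56 or HINFP replicate 1 at 0.47). ASNS, asparagine synthetase, fell from 6.89 and 7.09 to 6.51 and 6.60 (-0.43, adjusted p 0.0398) as 1 of 9 ATF4 and unfolded protein response genes, and its call was lost without control replicate 2 (-0.34), HINFP replicate 1 (-0.39) or HINFP replicate 2 (-0.48). None of 9 cholesterol and fatty acid synthesis genes, 3 interferon-stimulated genes, 4 lysosome and autophagy genes or 2 ribosomal protein genes with a symbol passed the test.

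**Figure D3:**
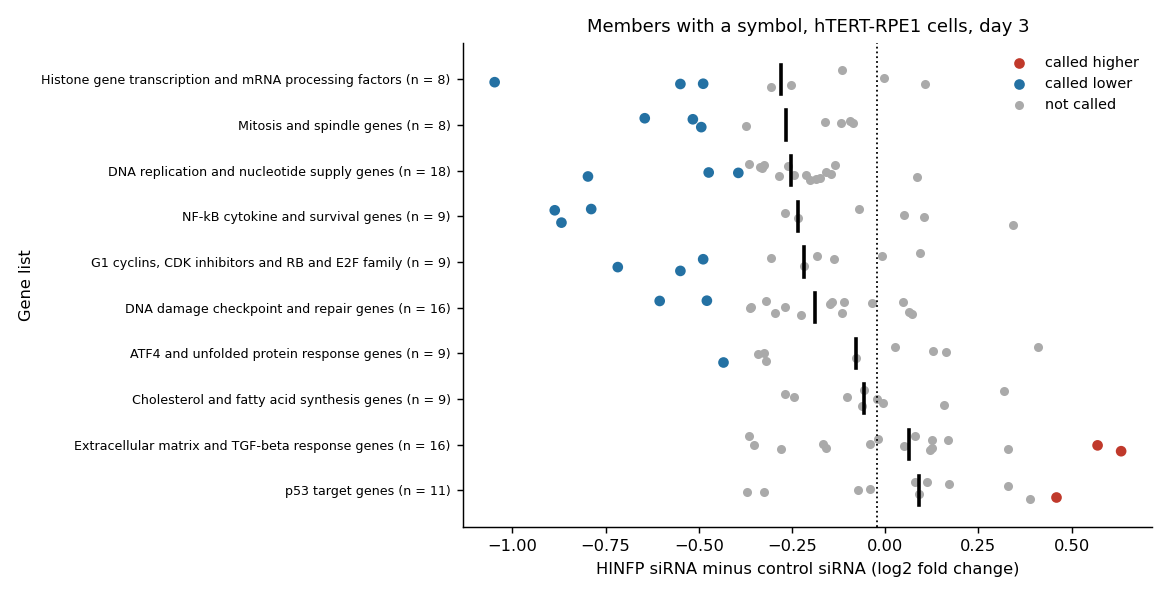
Log2 fold change of HINFP over control siRNA (x axis) for the members with a symbol of each list with at least 8 of them, with the list median as a black bar and the median of all genes with a symbol (-0.02) as a dotted line. The 6 lists at the top hold 2 or 3 called members, all lower, while calls of the matrix and p53 lists are higher. The calls of the histone factor list are HINFP, the siRNA target, and E2F1 and CCNE1, which also stand in the G1 list.

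The HINFP effect was then set against that of the other siRNAs in the same cells. Every comparison with control shares the same 2 control arrays, so the direct tests between siRNAs are given here. They use no control array but share the 2 HINFP arrays. HINFP and NPAT siRNA differed in 801 genes (3.63%), of which 346 were higher (1.57%) and 455 lower (2.06%) with HINFP siRNA, and HINFP and CASP8AP2 siRNA in 840 (3.81%), of which 281 were higher (1.27%) and 559 lower (2.53%). Of the 119 called genes with a symbol 36 differed between HINFP and NPAT siRNA and 36 between HINFP and CASP8AP2 siRNA, where 116 (6.03%) and 128 (6.65%) of all genes with a symbol differed. The 119 genes were chosen on the same 2 HINFP arrays that enter these tests, which raises both counts, so nothing is read from them.

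H1F0 and MCAM were lower with HINFP siRNA than with either other siRNA. H1F0 was 7.78 and 8.08 with NPAT siRNA and 8.74 and 8.42 with CASP8AP2 siRNA, above the control arrays, while its HINFP arrays lay below them. The log2 value with HINFP siRNA minus that with the other siRNA was -1.98 for NPAT and -2.63 for CASP8AP2 (limma adjusted p 2.89e-05 and 1.16e-06), and both differences were called under every alternative run. MCAM was higher than control with all 3 siRNAs, at 7.09 and 7.24 with NPAT siRNA and 6.85 and 6.92 with CASP8AP2 siRNA, and the HINFP arrays were the lowest of these 3 groups (-1.31 against NPAT, adjusted p 2.89e-05, and -1.03 against CASP8AP2, adjusted p 6.95e-05). PMAIP1 was likewise higher with NPAT siRNA (9.17 and 9.15) and CASP8AP2 siRNA (9.27 and 9.18) than with HINFP siRNA (differences -0.55 and -0.62, adjusted p 0.0199 and 0.00931). These calls of PMAIP1 were lost without HINFP replicate 2 (-0.34 and -0.41), and also without NPAT replicate 1 (-0.54), NPAT replicate 2 (-0.56) or CASP8AP2 replicate 1 (-0.57), while those of MCAM held.

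Some changes separated HINFP siRNA from both others in the direction it moved from control. PLCB4 reached 9.50 and 9.38 with NPAT siRNA and 8.95 and 9.01 with CASP8AP2 siRNA, against 9.91 and 9.96 with HINFP siRNA (differences 0.50 and 0.96, adjusted p 0.00802 and 3.93e-05). KIF18B was 8.06 and 8.07 with NPAT siRNA and 8.01 and 8.02 with CASP8AP2 siRNA, and both HINFP arrays were lower (-0.56 and -0.51, adjusted p 0.0078 and 0.00987). ESPL1 was 7.75 on both NPAT arrays to 2 decimals and 7.33 and 7.50 with CASP8AP2 siRNA, again above the HINFP arrays (-0.81 and -0.48, adjusted p 0.00091 and 0.0155). LONRF1, a RING finger protein, was 5.38 and 5.31 with control, 5.88 on each HINFP array, 5.40 and 5.32 with NPAT siRNA and 5.46 and 5.42 with CASP8AP2 siRNA. ABCC4, an exporter of cyclic nucleotides and drugs, was 7.83 and 7.93 with control, 8.44 on each HINFP array, 8.14 and 8.10 with NPAT siRNA and 8.07 and 8.15 with CASP8AP2 siRNA. Both genes were highest with HINFP siRNA (LONRF1 0.53 against control, 0.51 and 0.43 against the others, adjusted p 0.0157, 0.0176 and 0.0364, and ABCC4 0.56, 0.32 and 0.34, adjusted p 0.00265, 0.0451 and 0.034). LONRF1 lost its call against control without control replicate 2 (0.50), HINFP replicate 1 (0.53) or HINFP replicate 2 (0.53), and the direct differences of LONRF1 (0.41 to 0.55) and ABCC4 (0.30 to 0.38) were lost without any single array of the siRNAs compared. Those of KIF18B were lost without HINFP replicate 1 (-0.47 against NPAT and -0.42 against CASP8AP2), NPAT replicate 1 (-0.56) or 2 (-0.55) and CASP8AP2 replicate 1 (-0.51) or 2 (-0.50). The difference of ESPL1 from CASP8AP2 siRNA was lost without HINFP replicate 1 (-0.40) or CASP8AP2 replicate 2 (-0.39), and that of PLCB4 from NPAT siRNA without HINFP replicate 1 (0.53) or NPAT replicate 2 (0.44).

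Other genes separated HINFP siRNA from a single one of the others. MXI1 was 7.40 and 7.23 with NPAT siRNA, near control, and 8.06 and 8.10 with CASP8AP2 siRNA, near the HINFP arrays (0.86 against NPAT, adjusted p 0.000351, and 0.10 against CASP8AP2, 95% interval from -0.10 to 0.30, adjusted p 0.71). ADAMTS14 had the same arrangement, with 4.98 and 5.24 under NPAT siRNA and 6.12 and 5.98 under CASP8AP2 siRNA (0.84, adjusted p 0.00158, and -0.10, 95% interval from -0.33 to 0.14, adjusted p 0.769). IL1A was 5.34 and 4.84 with NPAT siRNA and 5.91 and 5.95 with CASP8AP2 siRNA, so HINFP siRNA was lower than CASP8AP2 siRNA (-1.11, adjusted p 0.00546) and the difference from NPAT siRNA missed the threshold (-0.27, adjusted p 0.571). SNAI1 was lower with HINFP than with CASP8AP2 siRNA (8.39 and 8.31, difference -0.96, adjusted p 0.00107), and 0.08 from NPAT siRNA (7.14 and 7.47, adjusted p 0.854). CYP1B1 was lowest with NPAT siRNA (8.03 and 8.27), and HINFP siRNA minus NPAT siRNA was 0.74 (adjusted p 0.0213), while CASP8AP2 siRNA gave 8.84 and 9.11. The difference of CYP1B1 from NPAT siRNA was lost without any single array (0.62 to 0.86), and that of IL1A from CASP8AP2 siRNA without HINFP replicate 1 (-1.02) or CASP8AP2 replicate 2 (-1.09).

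**Figure D4:**
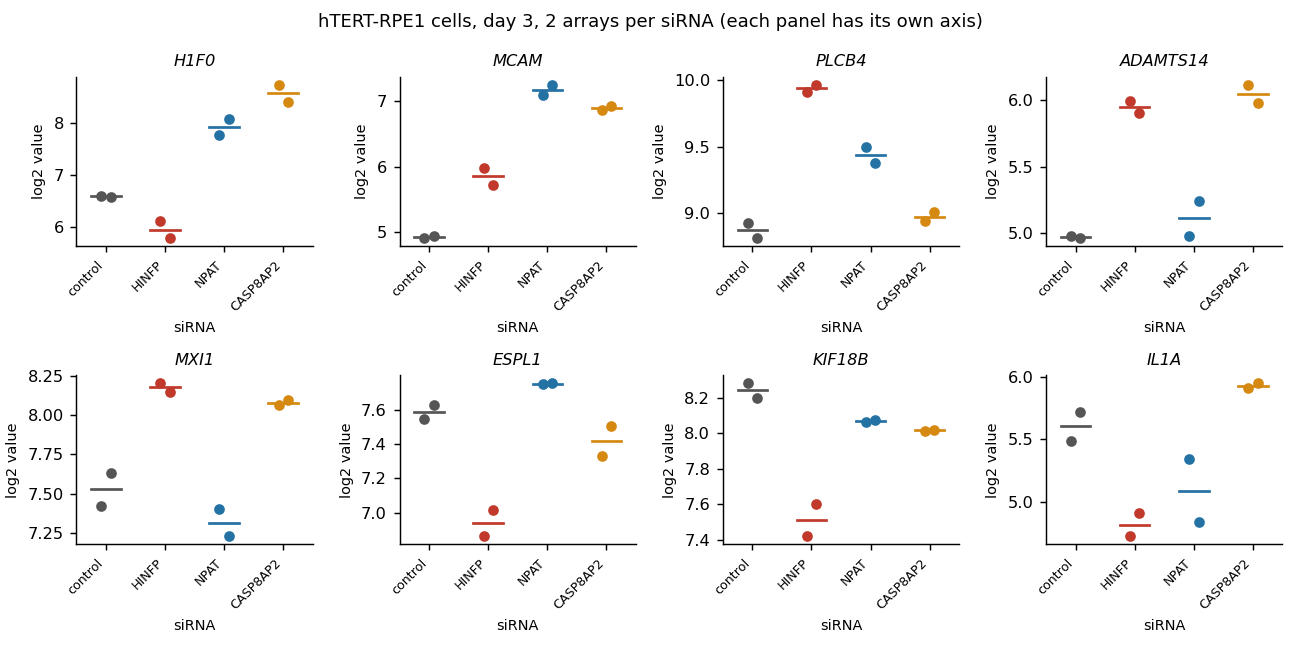
Log2 values (y axis, a separate scale in each panel) of 8 genes on the 2 arrays of each siRNA in hTERT-RPE1 cells, with the group mean as a bar. H1F0 is below control with HINFP siRNA and above it with the other siRNAs, PLCB4 is highest with HINFP siRNA, and KIF18B and ESPL1 are lowest with it.

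The same siRNA was used in U2OS cells, where 2081 genes were called (9.43%), and 2 arrays a group of separate cells allow the effects to be compared with no shared array. The fit shared the spread of each gene over both lines, so the calls of the lines are not independent and their overlap was not tested. Of the 915 genes called in hTERT-RPE1 cells 276 were also called in U2OS cells (30.2% of the first list and 13.3% of the second), 248 of them with the same sign. Among the 119 genes with a symbol 45 were called with the same sign in U2OS cells, 6 with the opposite sign and 68 were not called, beside 248 of 1924 (12.9%) called there in either direction. IL8 fell in both lines, from 10.10 and 10.04 to 8.82 and 9.02 in U2OS cells (a change of -1.15, adjusted p 0.00158). PCDHB5 fell there from 8.18 and 8.35 to 7.23 and 6.66 (-1.32, adjusted p 0.00259), and KIF18B from 8.89 and 9.03 to 8.52 and 8.28 (-0.56, adjusted p 0.00311). RP2, ERC1 and JAG1 rose in both, RP2 from 7.29 and 7.49 to 7.81 and 8.03 in U2OS cells (0.53, adjusted p 0.0189). ERC1, a scaffold of the cell cortex, was 8.57 and 8.53 with control and 9.11 and 9.23 with HINFP siRNA in hTERT-RPE1 cells (0.62, adjusted p 0.0125) and went from 8.78 and 8.94 to 9.36 and 9.43 in U2OS cells (0.54, adjusted p 0.0112). JAG1, a Notch ligand, was 7.50 and 7.62 against 8.29 and 7.93 in hTERT-RPE1 cells (0.55, adjusted p 0.0271) and 7.55 and 7.48 against 8.03 and 8.09 in U2OS cells (0.55, adjusted p 0.0122). ERC1 lost its call in hTERT-RPE1 cells without HINFP replicate 1 (0.68) or 2 (0.56), and JAG1 without control replicate 1 (0.49), control replicate 2 (0.60) or HINFP replicate 1 (0.36).

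The difference between the effects of the lines was tested as an interaction term, and 695 genes were called (3.15%), 378 with the change higher in U2OS (1.71%) and 317 with it lower there (1.44%), among them 74 of 1924 genes with a symbol (3.85%). These included 21 of the 119 genes called in hTERT-RPE1 cells, a count that the choice of the genes raises, since they were chosen on arrays that enter the interaction term. BMP6, a bone morphogenetic protein, fell in hTERT-RPE1 cells from 6.34 and 6.47 to 5.90 and 5.86 (-0.53, adjusted p 0.0112) and rose in U2OS cells from 6.30 and 6.32 to 7.26 and 7.44 (1.04, adjusted p 3.11e-05). SNAI1 also rose in U2OS cells, from 7.45 and 7.52 to 8.18 and 8.31 (0.76, adjusted p 0.00306). NRXN3, a neurexin, went the other way, from 8.55 and 8.07 to 8.78 and 9.03 in hTERT-RPE1 cells (0.60, adjusted p 0.0363) and from 7.00 and 6.92 to 6.26 on each HINFP array in U2OS cells (-0.70, adjusted p 0.0079). The differences of U2OS minus hTERT-RPE1 were 1.56 for BMP6, 1.52 for SNAI1 and -1.30 for NRXN3 (limma adjusted p 6.39e-05, 0.000866 and 0.00471). In hTERT-RPE1 cells the call of BMP6 was lost without control replicate 2 (-0.46), HINFP replicate 1 (-0.55) or HINFP replicate 2 (-0.51), and that of NRXN3 without control replicate 2 (0.36), HINFP replicate 1 (0.72) or HINFP replicate 2 (0.47), while the differences between the lines were called under every alternative run.

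PLCB4, ADAMTS14, SCN9A and CYP1B1 had control values in U2OS cells of 5.01 and 4.92, 4.19 and 4.06, 4.25 and 4.30, and 3.66 and 3.80, low in the range of the arrays. Their U2OS fold changes were 0.27, -0.10, 0.02 and 0.32, none of them called, and the differences between the lines were called for all 4 (-0.80, -1.08, -0.72 and 1.37, adjusted p 0.00394, 0.00263, 0.016 and 0.00623). The difference for SCN9A was lost without hTERT-RPE1 HINFP replicate 2, either U2OS control replicate, 1 or 2, or U2OS HINFP replicate 1 (-0.75 to -0.62). It was also lost when only the arrays compared were fitted (limma adjusted p 0.0744). HINFP itself fell by 1.64 in U2OS cells, from 7.10 and 6.86 to 5.61 and 5.07, and the difference in knockdown missed the threshold (-0.59, SE 0.21, 95% interval from -1.05 to -0.14, adjusted p 0.156). The part of the depth of knockdown in these differences was not tested.

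**Figure D5:**
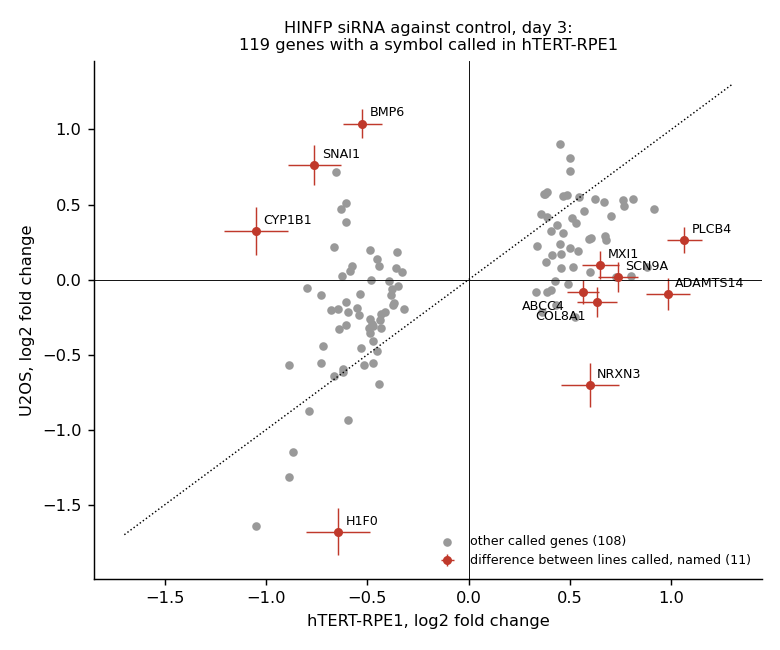
Log2 fold change of HINFP over control siRNA in hTERT-RPE1 cells (x axis) and U2OS cells (y axis) for the 119 genes with a symbol called in hTERT-RPE1 cells, with the line of equal effect dotted and standard errors on the 11 named genes whose difference between lines was called (red). BMP6 and SNAI1 lie in the upper left, NRXN3 in the lower right.

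The promoters of the called genes were searched for CGTCCGC, the core of the element that HINFP is known to bind, on both strands (GCGGACG on the other). RefSeq promoters (GRCh38.p14, 250 bases before to 50 after the start) were matched by symbol for 100 of the 119 called genes. The motif was found in 2 of 51 promoters of genes that fell (3.92%) and in 4 of 49 promoters of genes that rose (8.16%), beside 77 of 1486 promoters of genes with a symbol (5.18%) and 1153 of 27305 promoters in all (4.22%). The HINFP promoter does not hold these letters in this window. The matches before the start site are shown because they are all the called genes with the motif there, with the motif in capitals and each sequence in the direction of its gene. Those of the genes that fell, METTL10 (-0.53, adjusted p 0.0179) and EVL (-0.44, adjusted p 0.0306), lie at chr10:124791888-124791919 (minus strand), chr14:99971261-99971310 and chr14:99971375-99971421 (plus strand). METTL10 encodes a lysine methyltransferase and EVL an actin regulator of the Ena/VASP family.
METTL10: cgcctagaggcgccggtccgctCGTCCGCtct
EVL, upstream match: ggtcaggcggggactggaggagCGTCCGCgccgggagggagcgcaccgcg
EVL, match near the start: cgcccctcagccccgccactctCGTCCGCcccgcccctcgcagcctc
Those of the genes that rose were LAMC1, the laminin gamma 1 chain (0.67, adjusted p 0.00487, chr1:183023246-183023295, plus strand), PMAIP1 (chr18:59899842-59899891, plus strand), the receptor NOTCH2 (0.44, adjusted p 0.0335, chr1:120069800-120069849, minus strand) and the autophagy receptor OPTN (0.37, adjusted p 0.0346, chr10:13099951-13100000, plus strand).
LAMC1: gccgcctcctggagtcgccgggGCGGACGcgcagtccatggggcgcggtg
PMAIP1: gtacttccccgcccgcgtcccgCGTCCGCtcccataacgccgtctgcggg
NOTCH2: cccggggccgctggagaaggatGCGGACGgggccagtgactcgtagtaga
OPTN: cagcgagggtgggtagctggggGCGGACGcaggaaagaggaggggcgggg
A match is a description of these letters and not a measured site. The 6 genes were chosen by the motif after their values were seen. OPTN lost its call without any single one of the 4 arrays (0.32 to 0.42), METTL10 without control replicate 1 (-0.45), HINFP replicate 1 (-0.59) or HINFP replicate 2 (-0.47) and when all 40 arrays were fitted (adjusted p 0.201), EVL without control replicate 2 (-0.34), HINFP replicate 1 (-0.40) or HINFP replicate 2 (-0.48), NOTCH2 without control replicate 1 (0.31), HINFP replicate 1 (0.45) or HINFP replicate 2 (0.42), and LAMC1 without HINFP replicate 1 (0.60).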

How the data were processed

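Total RNA of 40 cultures was hybridised to Affymetrix Human WT arrays. Per the labels and the methods, the authors grouped probes by Ensembl gene, used the affy package of Bioconductor (the submitters' notes name RMA) and deposited log2 values for 22069 genes. Neither the release of the probe annotation nor its build is given in the sources used here. Groups were taken from the array labels. No column was left out, and no further normalization or filter was applied.

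limma 3.58.1 (lmFit and eBayes, default settings) was run in R 4.3.3 on the 16 arrays of day 3, as 8 group means with 8 residual degrees of freedom. Contrasts were HINFP against control siRNA in hTERT-RPE1 cells, the same effect in U2OS minus hTERT-RPE1 cells, and HINFP against NPAT or CASP8AP2 siRNA in hTERT-RPE1 cells. All tests were two-sided, with Benjamini-Hochberg adjustment over all genes, and genes were called at an adjusted p under 0.05. On simulated data for the HINFP comparison in hTERT-RPE1 cells with 22069 genes, 97 of 100 genes changed by 1 log2 unit and 45 of 100 changed by 0.5 were recovered, with 7 false calls and 0 wrong signs. The simulated noise was independent and normal, with the spread of each gene on the day 3 arrays. The simulation checks the fit and does not measure the false calls on the real arrays.

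A pairing of Ensembl identifiers with symbols that the authors gave for genes of their screen, used here in part, named 1924 genes, and the authors' spelling was kept. H1FX was not named by it. One of the 10 largest rises is not reported here. Named were HINFP, NPAT, CASP8AP2 and H1F0, the 10 largest rises and falls with non-overlapping arrays, up to 4 called members each way of each of 22 gene lists, the 3 largest each way called alike in U2OS cells, different between the lines, or called against control, NPAT and CASP8AP2 siRNA alike. The members and lists were chosen with earlier results of these data known. Same-numbered replicates did not deviate together (r of their differences -0.07 between control and HINFP siRNA, and -0.12 to 0.21 over pairs of siRNAs in hTERT-RPE1 cells), so they were not paired. Alternatives changed the arrays fitted, the scaling, a filter at a mean of 5, the variance trend, array weights, a minimum change of 0.5 and a replicate block, and left out each array.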

Additional observations from a re-analysis of the deposited data

Results flagged for a closer look

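The effect of HINFP siRNA differed between the lines, by an interaction term (limma, adjusted over all genes), for 11 of the genes named. Values are differences of log2 fold changes, U2OS minus hTERT-RPE1. It was higher in U2OS cells for BMP6 (1.56), SNAI1 (1.52) and CYP1B1 (1.37). It was lower in U2OS cells for NRXN3 (-1.30), ADAMTS14 (-1.08), H1F0 (-1.04), PLCB4 (-0.80), COL8A1 (-0.78), SCN9A (-0.72), ABCC4 (-0.65) and MXI1 (-0.55). BMP6, SNAI1 and NRXN3 were called in opposite directions in the lines, H1F0 fell in both (hTERT-RPE1 -0.64, U2OS -1.68), and the other 7 were not called in U2OS cells. In U2OS cells H1F0 was 11.63 and 11.74 with control and 10.22 and 9.78 with HINFP siRNA. Its control arrays in hTERT-RPE1 cells were far lower, at 6.60 and 6.59. The part of this level in the difference was not tested.

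COL8A1 gave 4.57 and 4.74 with control and 4.54 and 4.46 with HINFP siRNA in U2OS cells, ABCC4 gave 8.31 and 8.29 against 8.17 and 8.26, and MXI1 7.73 on each control array against 7.80 and 7.85, and none of these was called there. The difference for MXI1 (adjusted p 0.0396) was lost without any single array but hTERT-RPE1 control replicate 2 (-0.58 to -0.45), when no other arrays were fitted (adjusted p 0.104) and with the replicate block (adjusted p 0.0641). That for H1F0 (adjusted p 0.0246) was lost without hTERT-RPE1 control replicate 1 (-1.04) or 2 (-1.03), hTERT-RPE1 HINFP replicate 1 (-0.88), U2OS control replicate 1 (-1.09) or 2 (-0.98), or U2OS HINFP replicate 2 (-0.82), and that for SCN9A without hTERT-RPE1 HINFP replicate 2 (-0.62), U2OS control replicate 1 (-0.75) or 2 (-0.69), or U2OS HINFP replicate 1 (-0.64). The difference for COL8A1 was lost when all 40 arrays were fitted (adjusted p 0.0927) and that for ABCC4 when no other arrays entered the fit (adjusted p 0.0519). In the latter fit those for H1F0 (adjusted p 0.0647) and SCN9A (adjusted p 0.0744) were lost too. The others were called under every alternative that tested them.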

How the results depend on the processing

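With 2 simultaneous duplicates a group, the counts move with the arrays fitted. In the order only the arrays compared, only day 3 arrays of hTERT-RPE1 cells and all 40 arrays, HINFP against control siRNA gave 25, 451 and 2281 genes in place of 915, HINFP against NPAT siRNA 154, 413 and 1935 in place of 801, and HINFP against CASP8AP2 siRNA 344, 559 and 1714 in place of 840. The difference between lines gave 289 with only the arrays compared and 1708 with all 40 in place of 695. Array weights gave 421 against control and 1309 against NPAT siRNA, and a minimum change of 0.5 gave 483 and 485. Leaving out an array gave 145 to 698 against control, 284 to 636 between lines, 117 to 505 against NPAT siRNA and 323 to 374 against CASP8AP2 siRNA. Centring each array on its median turned the split of higher and lower genes from 471 and 444 to 556 and 335 against control, and from 378 and 317 to 300 and 416 between lines. With the replicate block the counts were 849, 613, 774 and 769, and no count moved by over 1.5 times. Among the genes named by rule the block ended the calls against control of IL1A (adjusted p 0.0578), CCNE1 (0.0634), RPA2 (0.0653), PMAIP1 (0.0505) and NRXN3 (0.0556), those of ABCC4 against NPAT (0.0627) and CASP8AP2 siRNA (0.0526), and the difference between lines of MXI1 (0.0641). Of the results for named genes against control 450 kept their side of the threshold, 172 lost it and 4 changed sign, all of the last for NPAT, whose -0.00 became 0.023 with centring and 0.0043 with cyclic loess and lay between -0.12 and 0.11 over the arrays left out (0.08 without control replicate 1, 0.11 without HINFP replicate 1). Of the 119 called genes with a symbol 116 stayed called in the fit of all 40 arrays, 115 with cyclic loess, 61 with only the day 3 arrays of hTERT-RPE1 cells, 18 without HINFP replicate 1 and 3 with only the 4 arrays. The cause of these shifts was not tested.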

Other observations

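The largest changes on the 4 arrays were of genes without a paired symbol, and 2 that rose and 2 that fell are given by identifier. ENSG00000130513 was 4.39 and 4.56 with control and 8.53 and 7.69 with HINFP siRNA (log2 fold change 3.64, limma adjusted p 1.69e-06), and higher still with NPAT siRNA (10.26 and 10.64) and CASP8AP2 siRNA (10.96 and 10.95). The direct differences were -2.34 from NPAT siRNA and -2.85 from CASP8AP2 siRNA (adjusted p 6.21e-05 and 5.57e-06). ENSG00000100867 was 3.73 and 4.08 with control and 7.66 and 7.21 with HINFP siRNA (3.53, adjusted p 6.33e-08). It reached 8.16 and 7.98 with CASP8AP2 siRNA, but 4.41 and 4.50 with NPAT siRNA, so HINFP siRNA stood 2.98 above NPAT siRNA (adjusted p 2.67e-07). Both genes were already at 8.80 or more on the control arrays of U2OS cells and rose there by 1.18 and 1.56 (adjusted p 0.00297 and 2.94e-05). ENSG00000116711 fell from 5.72 and 5.95 to 4.17 and 4.45 in hTERT-RPE1 cells (-1.52, adjusted p 1.41e-05) and from 5.34 and 5.25 to 4.04 and 4.11 in U2OS cells (-1.22, adjusted p 2.81e-05). ENSG00000252742 fell from 5.01 and 5.17 to 4.00 and 3.36 in hTERT-RPE1 cells (-1.41, adjusted p 0.028) and gave -0.05 in U2OS cells (adjusted p 0.96). The last call in hTERT-RPE1 cells was lost without any single one of the 4 arrays (-1.73 to -1.09, adjusted p 0.0631 to 0.171), and with the 4 arrays fitted alone (adjusted p 0.0716).

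Gene families were looked at after the values of the called genes were seen, so these counts are a description, to be read beside the 2.91% of all genes with a symbol that rose and the 3.27% that fell. Of the 4 alpha subunits of voltage-gated sodium channels with a symbol SCN9A, SCN8A (5.96 and 6.12 with control, 6.42 and 6.68 with HINFP siRNA, log2 fold change 0.51) and SCN2A (3.65 and 3.69 against 4.24 and 4.12, 0.51) rose, and SCN1A gave 0.03. Among 36 potassium channel genes KCNH1 alone was called. The 10 metalloproteinases of the ADAM and ADAMTS families held 3 rises (ADAMTS14, ADAM12 and ADAM17, the last at 0.40) and no fall. AHRR, the repressor of the aryl hydrocarbon receptor and one of its targets, fell with CYP1B1, from 6.72 and 6.94 to 6.11 and 6.28 (-0.63, adjusted p 0.0161), while CYP1A2 gave -0.07. Of the 3 ALDH1A genes, whose enzymes make retinoic acid, ALDH1A3 fell from 10.50 and 10.78 to 9.84 and 10.11 (-0.66, adjusted p 0.019), while ALDH1A1 gave 0.13 and ALDH1A2 0.06, and the median was 0.06. DHRS3, which reduces retinal (-0.65), and RARA, a retinoic acid receptor (-0.33), also fell and were picked singly, from no list. With NPAT siRNA AHRR, ALDH1A3, DHRS3 and RARA changed from the same control arrays by -0.94, -0.71, -0.92 and -0.47. With CASP8AP2 siRNA they changed by -1.04, -0.50, -1.59 and -0.48. DHRS3 was higher with HINFP than with CASP8AP2 siRNA (0.94, limma adjusted p 0.000945). The other direct differences of these genes from either siRNA were not called. Both Fanconi anaemia genes with a symbol fell, FANCE and FANCG, the second from 7.98 and 7.94 to 7.45 and 7.57 (-0.45, adjusted p 0.00718). These calls rest on few arrays. RARA (-0.37 to -0.29) and SCN2A (0.45 to 0.57) were not called without any single one of the 4 arrays, DHRS3 was lost without control replicate 2 (-0.55), HINFP replicate 1 (-0.66) or HINFP replicate 2 (-0.65), and ADAM17 without control replicate 1 (0.26), HINFP replicate 1 (0.39) or HINFP replicate 2 (0.41). SCN8A was lost without control replicate 1 (0.43) or HINFP replicate 2 (0.38), AHRR without control replicate 2 (-0.52) or HINFP replicate 1 (-0.55), ALDH1A3 without the same arrays (-0.52 and -0.53), and FANCG without HINFP replicate 1 (-0.39). The replicate block also ended the calls of RARA (adjusted p 0.056) and ADAM17 (adjusted p 0.0527).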
